A study of Homo sapiens with 6 samples.

Results

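FAP encodes fibroblast activation protein, a prolyl peptidase of the cell surface. It was examined here with 7 related peptidase genes, DPP4, DPP7, DPP8, DPP9, DPP10, PREP and PRCP, in LX-2 cells given medium from colorectal carcinoma cells. These 8 genes were picked by symbol out of 60605 genes with an Ensembl identifier, and all 8 were found. FAP was chosen by its change in the same 6 libraries and the other 7 as its relatives, so the differences of the 8 genes between the media are given as a description, with no test.

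LX-2 is an established line of human hepatic stellate cells, the liver cells that turn into matrix-producing myofibroblasts on injury. All libraries came from this single line, cultured for 24 h in medium conditioned by HCT116, an established human colorectal carcinoma line. The HCT116 cells carried either an empty vector (Vector-CM, n = 3) or overexpressed FGFBP1 (FGFBP1-CM, n = 3), a secreted protein that carries fibroblast growth factors. What the media contained was not measured here, and no source says whether the replicates were separate cultures, so p-values measure the spread between these samples, which may be technical.

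Prolyl peptidases cut peptide bonds next to proline, which most other proteases cannot cleave. FAP and DPP4 sit in the plasma membrane and remove dipeptides from peptide ends; FAP also cuts inside chains, as in denatured collagen. FAP is scarce in most healthy adult tissue and is a marker of activated fibroblasts, in fibrotic liver and tumor stroma among other places. DPP8 and DPP9 work in the cytosol, PREP is a cytosolic endopeptidase of short peptides, DPP7 and PRCP work in vesicles and lysosomes, and DPP10 has lost its catalytic activity and serves as a partner of potassium channels.

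FAP (ENSG00000078098) lies on chromosome 2 from 162170684 to 162245151 on the minus strand in GENCODE release 29 (GRCh38). DPP4 (ENSG00000197635), its closest relative, lies on the same chromosome, with GCG between them, from 161992241 to 162074542 on the same strand. The submitters' processing notes name the build hg18, whereas the identifiers in the table are of a GRCh38-era annotation; coordinates here are those of GENCODE release 29 only. Because near-identical stretches could let reads of 1 gene be counted for another, the coding sequences of the principal transcripts were compared over all 28 pairs. The longest identical run, 24 bp, was shared by FAP and DPP4. The next were 21 bp between FAP and DPP8 and 20 bp between DPP4 and DPP10, and each of the other pairs shared at most 15 bp. The FAP and DPP4 run is shown 5′ to 3′ on the coding strand, the shared 24 bp in capitals with 18 coding bases on either side.
FAP: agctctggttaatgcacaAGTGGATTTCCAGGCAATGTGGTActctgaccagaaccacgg
DPP4: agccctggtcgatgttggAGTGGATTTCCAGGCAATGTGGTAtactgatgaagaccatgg
Both stretches join the ends of neighbouring coding exons, at chromosome 2, 162172811 to 162172847 and 162171058 to 162171080 for FAP and at 161994961 to 161994997 and 161993362 to 161993384 for DPP4. Of the 60 bases printed, 46 were identical, and the stretch ends just past the codon of the catalytic histidine of both enzymes.

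Total counts ranged from 14003780 to 18508113 per library, so that 3 counts, the limit that a count of 0 allows, came to 0.162 to 0.214 CPM, the count scaled to library size. Floors and counting errors given here cover counting error only. Of 16707 genes above the count filter, 20 (0.120%) passed a false discovery threshold of 0.05 in edgeR and are referred to as called. Of these, 9 were higher and 11 lower in FGFBP1-CM, against 24 and 14 with RLE scaling. All FGFBP1-CM libraries lay above all Vector-CM libraries for 12.8% of tested genes, and below them for 13.2%. An unadjusted p under 0.05 in edgeR was reached by 21.7% of tested genes, DESeq2 called 4.94% of the 11848 genes to which it gave an adjusted p, and limma called 0.00599% and 0.0299% on log2(FPKM + 1) and log2(FPKM + 0.1). FGFBP1-CM replicate 1 had a chi-square per degree of freedom of 8.91 and 8.23 against the other libraries of its group, which differed from each other by 4.29. The Vector-CM pairs gave 5.09, 2.84 and 2.62, the first 2 of them with replicate 1. This measure uses raw counts and so grows with depth, and FGFBP1-CM replicate 1 was the deepest library. Of 12 stellate cell markers 9 passed the filter, with VIM at 2591 CPM and COL1A1 at 155 CPM on average after Vector-CM, but LRAT, the retinol-esterifying enzyme of quiescent stellate cells, was at 0 in every library and DES, GFAP and ACTA2 averaged 0.175, 0.430 and 4.75 CPM there. The summed level of the 12 markers was 2728 to 2916 CPM in the Vector-CM libraries and 2218 to 2611 CPM in the FGFBP1-CM libraries. Most of both sums was VIM, which averaged 2160 CPM after FGFBP1-CM. VIM was also the only one of the 9 tested markers whose groups did not overlap. Of the 9 log2 fold changes, 3 were positive and 6 negative. These are bulk libraries, in which fewer cells of a type and less RNA per cell cannot be told apart.

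FAP was low after Vector-CM and far higher after FGFBP1-CM. The Vector-CM libraries held 23, 24 and 33 reads of FAP, in replicate order, and the FGFBP1-CM libraries 884, 713 and 450. In CPM these were 1.28, 1.74 and 2.22 against 46.6, 44.7 and 27.5. Every FGFBP1-CM library was above every Vector-CM library, and FGFBP1-CM replicate 3 was the lowest of its group. The log2 fold change was 4.52 (SE 0.237), a 22.9-fold difference, and it was the largest in size of all 16707 tested genes, ahead of 2.36 among the other genes higher in FGFBP1-CM and -3.82, for FGA, among those lower. Without a count filter it ranked 6 among the genes higher in FGFBP1-CM. The log2 fold change lay between 4.32 and 4.73 when each library was left out in turn, and was 4.39 without FGFBP1-CM replicate 1.

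**Figure D1:**
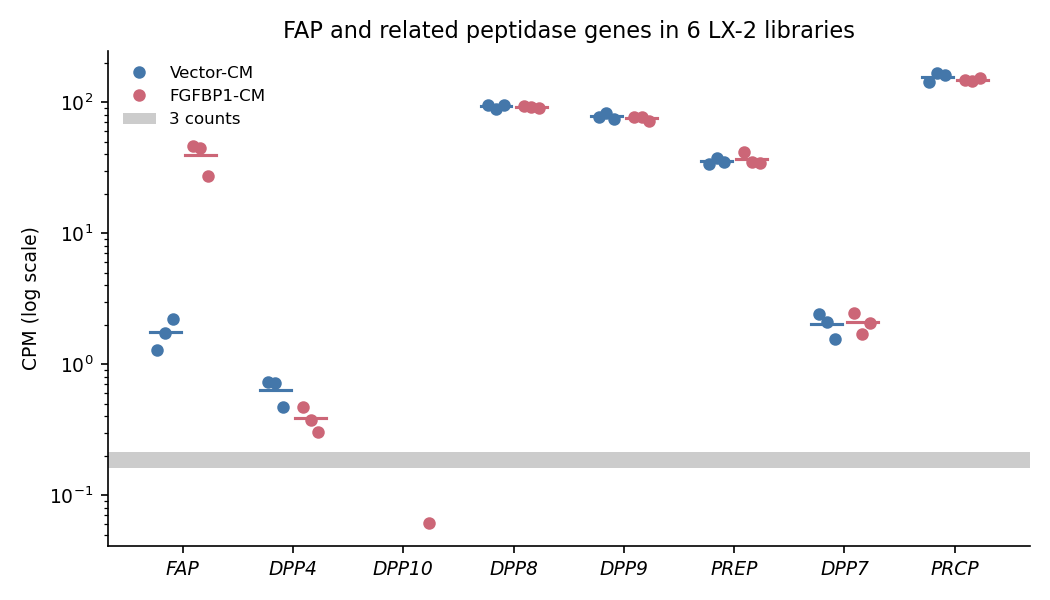
Level of each of the 8 genes in CPM (log scale) in the Vector-CM (blue) and FGFBP1-CM (red) libraries, 1 point per library with bars at the group means; libraries at 0 counts are not drawn, and the grey band marks 3 counts. FAP points sit at 1.28 to 2.22 CPM for Vector-CM and at 27.5 to 46.6 CPM for FGFBP1-CM. DPP10 has 1 point, in FGFBP1-CM, and the points of both media overlap for each of the remaining genes.

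The spread of FAP within a medium was wide. The highest FGFBP1-CM library held 1.69 times the level of the lowest, and the highest Vector-CM library 1.73 times the lowest. The coefficient of variation was 26.6% in FGFBP1-CM, where counting alone would give 3.83%, and 26.9% in Vector-CM, where counting alone would give 19.4%. The Vector-CM level therefore rested on few reads, and most of the spread in FGFBP1-CM was beyond counting error.

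FAP also moved through the ranking of genes. By FPKM (fragments per kilobase of gene, scaled to library size), it stood at 0.183, 0.246 and 0.311 in Vector-CM, above 3.68%, 6.63% and 9.0% of the tested genes. In FGFBP1-CM it stood at 6.85, 6.41 and 3.97 FPKM, above 62.6%, 62.0% and 50.4% of them. It thus went from the low end of the tested genes to the middle of them.

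The hepatocyte markers that passed the count filter were lower in FGFBP1-CM, in the opposite direction to FAP. Of 12 hepatocyte markers, 6 were tested, all 6 with no overlap below Vector-CM, beside 13.2% of all tested genes, and edgeR called 4 lower in FGFBP1-CM, ALB, APOB, AFP and FGA, beside 0.120%. All 4 called markers passed the count filter through the Vector-CM libraries, and of the 6 tested SERPINA1 alone met it in both media. The FGFBP1-CM counts were 16, 7 and 9 for ALB, 4, 7 and 3 for APOB, 11, 13 and 10 for AFP, and 1, 2 and 0 for FGA. The filter thus favoured markers lower in FGFBP1-CM, and nothing is read from the share without overlap or from the number called. DESeq2 called 1, SERPINA1, the single gene of the 6 to which it gave an adjusted p, and limma called 0 on log2(FPKM + 1) and 2, APOB and FGA, on log2(FPKM + 0.1). The summed level of the list was 41.5 to 44.5 CPM after Vector-CM and 18.3 to 28.1 CPM after FGFBP1-CM, and no marker was at 0 in all libraries. SERPINA1 alone averaged 29.6 CPM after Vector-CM and 20.7 CPM after FGFBP1-CM, most of these sums. The called ALB, APOB, AFP and FGA were low, averaging 3.43, 3.37, 3.11 and 0.933 CPM after Vector-CM. After FGFBP1-CM they averaged 0.611, 0.278, 0.669 and 0.059 CPM, near the detection limit. Their part in the FAP result was not tested. The marker lists of the other non-stellate cell types overlapped between media, at 2.31 to 3.50 against 1.95 to 2.63 CPM for 12 colorectal epithelial markers (CEACAM5, CEACAM6 and TFF3 at 0), 14.8 to 16.9 against 13.6 to 16.8 CPM for 8 endothelial markers, and 4.85 to 5.92 against 4.85 to 7.34 CPM for 8 immune markers.

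DPP4 (CD26), which inactivates incretin hormones and binds adenosine deaminase, stayed near the detection limit. Its counts were 13, 10 and 7 in Vector-CM and 9, 6 and 5 in FGFBP1-CM. The lowest Vector-CM library, at 0.472 CPM, and the highest FGFBP1-CM library, at 0.475 CPM, met, so the groups overlapped. DPP4 fell below the count filter and was not tested. DPP10 (ENSG00000175497, chromosome 2, 114442299 to 115845752, plus strand) had 1 count in all, in FGFBP1-CM replicate 3, and also stayed out of the test.

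The cytosolic pair was abundant and even. DPP8 (ENSG00000074603, chromosome 15, 65442463 to 65517704, minus strand) had 1710, 1225 and 1414 counts in Vector-CM and 1779, 1454 and 1468 in FGFBP1-CM, or 88.6 to 95.5 CPM against 89.8 to 93.8 CPM. DPP9 (ENSG00000142002, chromosome 19, 4675224 to 4724673, minus strand) had 1380, 1138 and 1107 counts in Vector-CM and 1449, 1238 and 1181 in FGFBP1-CM, or 74.6 to 82.3 CPM against 72.2 to 77.7 CPM. The media overlapped for both genes, with log2 fold changes of -0.02 (SE 0.063) for DPP8 and -0.05 (SE 0.067) for DPP9.

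PREP (ENSG00000085377, chromosome 6, 105277565 to 105403084, minus strand) cleaves neuropeptides and other short peptides. Its level was 33.8, 37.6 and 34.9 CPM after Vector-CM and 41.8, 35.1 and 34.2 CPM after FGFBP1-CM. Only FGFBP1-CM replicate 1 stood above all Vector-CM libraries, and the log2 fold change was 0.07 (SE 0.090). Without that library it was -0.03, so its sign rested on 1 library.

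DPP7 and PRCP, the vesicular and lysosomal enzymes, differed widely in level but little between media. DPP7 (ENSG00000176978, chromosome 9, 137110542 to 137115177, minus strand) had 43, 29 and 23 counts in Vector-CM and 47, 27 and 34 in FGFBP1-CM, with a log2 fold change of 0.05 (SE 0.240), and leaving out single libraries moved it between -0.11 and 0.21. PRCP (ENSG00000137509, chromosome 11, 82823502 to 82970584, minus strand), which trims a residue behind proline from angiotensins and other peptides, stood at 142, 166 and 162 CPM after Vector-CM and 146, 144 and 152 CPM after FGFBP1-CM. Its groups overlapped, with a log2 fold change of -0.08 (SE 0.070). Over the alternatives its log2 fold change stayed between -0.15 and -0.04.

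Of the 8 genes, 6 were above the count filter and 1, FAP, was called, beside 0.120% of all tested genes. FAP was also the single member whose groups did not overlap. Both counts follow from the choice of FAP, and nothing is read from them.

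**Figure D2:**
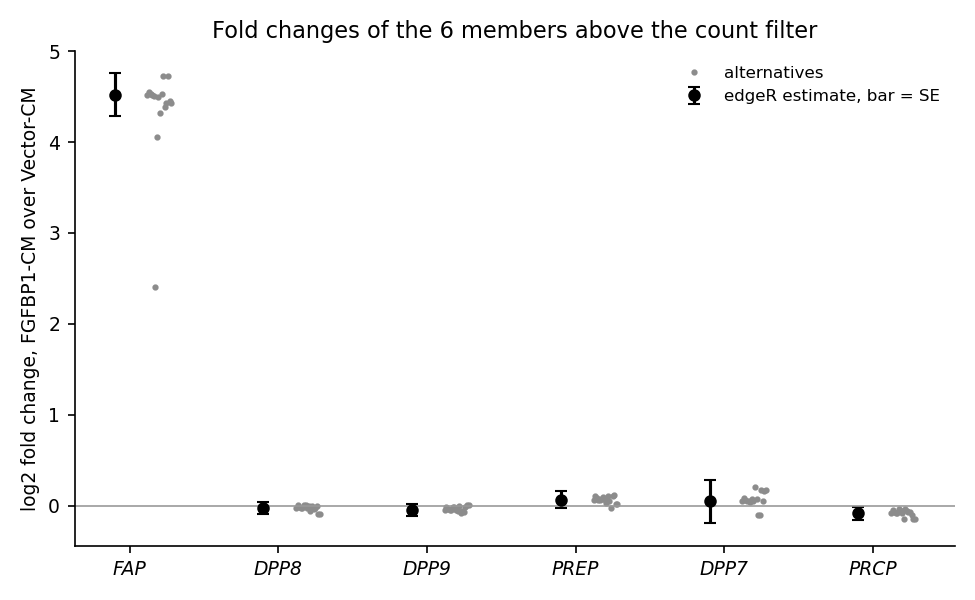
Log2 fold change of FGFBP1-CM over Vector-CM for the 6 genes above the count filter; black points are edgeR estimates with their SE and grey points the 16 alternatives. FAP lies at 4.52, with alternatives from 2.41 to 4.73, and the other genes lie between -0.15 and 0.21 in every alternative.

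FAP took a larger share of the summed level of the 8 genes in FGFBP1-CM. The summed FPKM of the other 7 genes was 29.5 ± 0.70 in Vector-CM and 29.6 ± 1.23 in FGFBP1-CM (SD, n = 3). FAP made up 0.62% to 1.06% of the summed FPKM of all 8 in Vector-CM and 12.1% to 18.1% in FGFBP1-CM. It ranked 6 of 8 in every Vector-CM library, behind DPP7, and 3, 3 and 4 in the FGFBP1-CM libraries. In FGFBP1-CM replicates 1 and 2 it stood behind DPP9 and DPP8 only, and in replicate 3 behind PRCP as well.

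**Figure D3:**
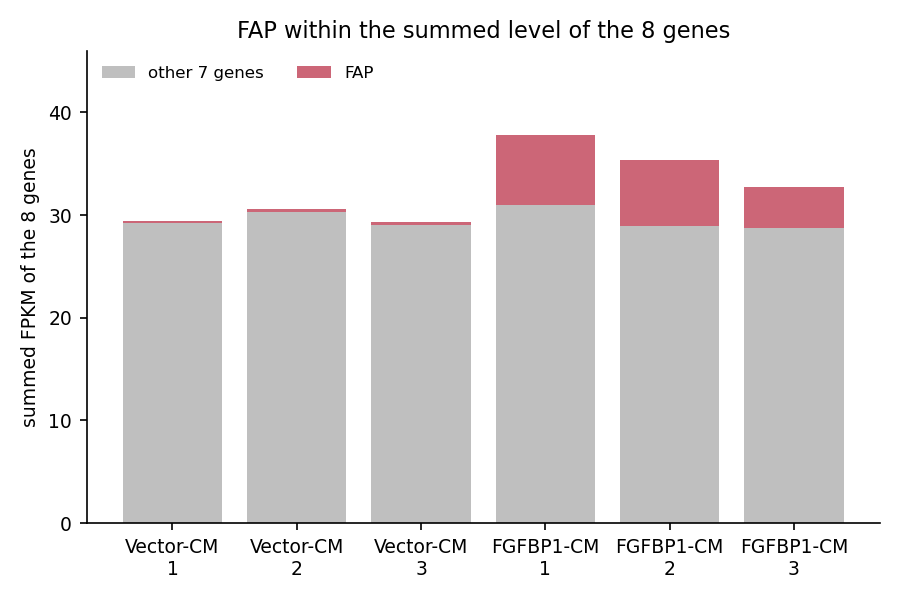
Summed FPKM of the 8 genes in each library, split into FAP (red) and the other 7 (grey). The grey part sits near 29.5 FPKM in both media, and the red part is 0.62% to 1.06% of the bar in Vector-CM and 12.1% to 18.1% in FGFBP1-CM.

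The order of the other 7 genes was not used to choose the members, but the pairs compared were taken from the order in these same libraries. The p-values below describe how steady each difference was over the libraries. They do not cover an error in gene length, which all libraries share. By FPKM over 6 libraries it ran DPP9 (9.22 ± 0.40), DPP8 (9.03 ± 0.31), PRCP (6.48 ± 0.36), PREP (4.06 ± 0.39), DPP7 (0.726 ± 0.14), DPP4 (0.035 ± 0.012) and DPP10 (0.001 ± 0.0025; SD, n = 6). DPP9 and DPP8 were not told apart: DPP9 was higher in 3 of 6 libraries, with a mean difference of 0.03 ± 0.09 (SD) on the log2(FPKM + 0.1) scale (exact two-sided sign-flip permutation test, p = 0.594). Each of the other 5 neighbours in the order differed in the same direction in 6 of 6 libraries (exact sign-flip permutation test, p = 0.03125, the smallest that 6 libraries can give; adjusted p = 0.0375 over 6 pairs). The 6 libraries are of 1 cell line in 2 media.

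This order depended on the gene length. The length behind the deposited FPKM was 23408 bp for PRCP, against 2120 bp for its principal transcript, and 14432 against 3904 bp for DPP4, 8917 against 2905 bp for PREP and 6968 against 2780 bp for FAP. DPP8 was nearly alike on both scales, at 10211 and 8699 bp. For PRCP, DPP4 and PREP the length behind the FPKM also exceeded their summed annotated exons, of 12798, 5009 and 3762 bp. For a second scale, the count of the whole gene was divided by the length of its principal transcript and scaled to library size. Reads were not restricted to that transcript, so genes with a much longer counted length are raised by construction, PRCP most. The order became PRCP (71.6 ± 4.02), DPP9 (17.8 ± 0.78), PREP (12.4 ± 1.20), DPP8 (10.6 ± 0.37), DPP7 (1.29 ± 0.25), DPP4 (0.131 ± 0.044) and DPP10 (0.0037 ± 0.0091; SD, n = 6). All 6 neighbouring pairs then differed in the same direction in 6 of 6 libraries (exact sign-flip permutation test, p = 0.03125; adjusted p = 0.03125). On this scale FAP stood at 0.46, 0.62 and 0.78 in Vector-CM and at 17.2, 16.1 and 9.96 in FGFBP1-CM, ranking 6 in each Vector-CM library and 3, 3 and 5 in the FGFBP1-CM libraries. The genomic span of PRCP also overlaps DDIAS, which had 1076 to 1829 counts, and whether counting used strand is not stated in the sources used here.

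**Figure D4:**
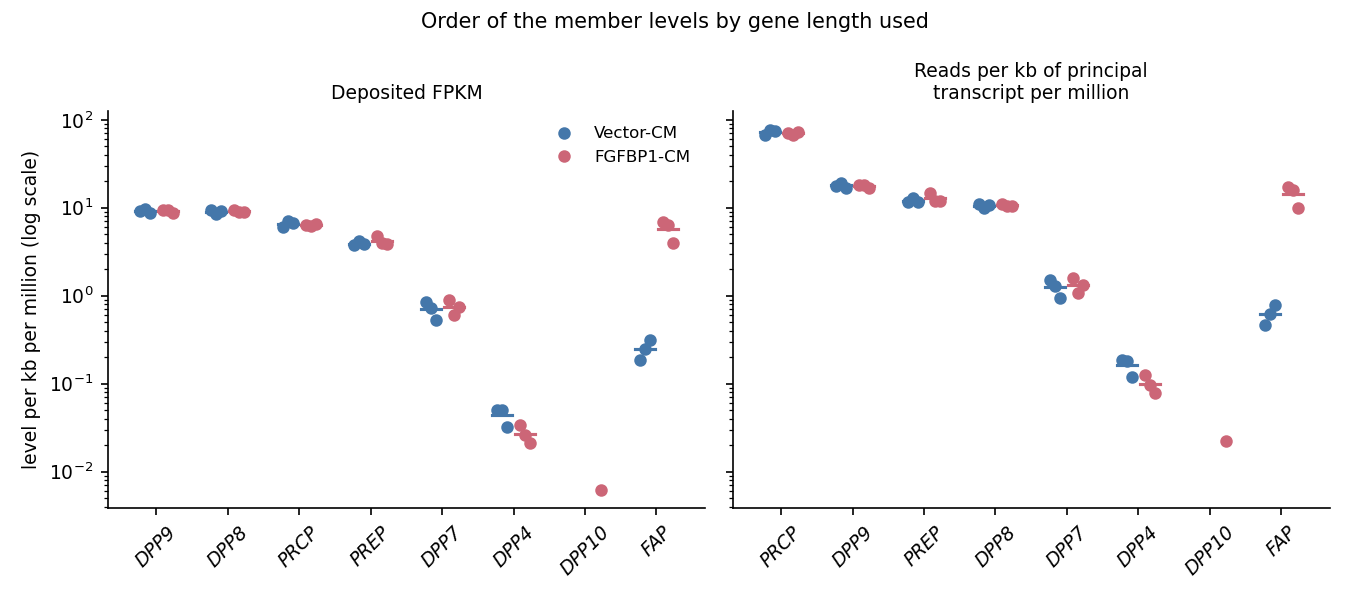
Levels of the 8 genes (log scale) by deposited FPKM and by whole-gene reads per kilobase of principal transcript at equal library size, 1 point per library with bars at the group means, libraries at 0 not drawn; 7 genes are ordered by mean and FAP stands last. PRCP moves from 6.48 to 71.6 between the scales, whereas DPP7, DPP4 and DPP10 stay lowest of the 7 on both.

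The chromosomal neighbours of FAP were examined for differences shared along the chromosome. Of the 12 genes, 6 on each side, 6 were tested and none was called by edgeR, DESeq2 or limma, with 1 at an unadjusted p under 0.05, beside 21.7% of all tested genes. That gene was PSMD14, a proteasome lid subunit, at 74.2, 76.3 and 75.1 CPM after Vector-CM and 92.5, 84.9 and 85.1 CPM after FGFBP1-CM. Its groups did not overlap, the log2 fold change being 0.22 (SE 0.065) with an adjusted p of 0.096 in edgeR. The next gene beyond FAP, IFIH1, a sensor of double-stranded RNA, had a log2 fold change of -0.09 (SE 0.096), and the calcium-binding GCA, beside it, 0.16 (SE 0.118). TANK, FIGN and COBLL1 had log2 fold changes of 0.08, -0.03 and -0.28, all with overlapping groups. TBR1, SLC4A10, GCG, KCNH7 and GRB14 had at most 3 counts in any library, and DPP4 is described above. AC007750.1, antisense to FAP with 638 bp of shared exon, had 0 or 1 count in every library.

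Other peptidases that act on proline or on peptide ends showed small differences. Of 17 related peptidases, 13 were tested and none was called by edgeR or in either limma fit or DESeq2, with 2 at an unadjusted p under 0.05, beside 21.7% of all tested genes. Their median log2 fold change was 0.03, against 0.0032 over all tested genes, and 8 were positive and 5 negative. With a correction for GC content and length, 6 were positive and 7 negative, with a median of -0.004. The largest differences were those of PRSS16, a thymic serine protease, at -0.25 (SE 0.234), XPNPEP1, an aminopeptidase that removes residues in front of proline, at -0.19 (SE 0.070), and DPP3, a cytosolic zinc dipeptidyl peptidase, at 0.19 (SE 0.091). On average XPNPEP1 lay at 56.9 CPM after Vector-CM and 49.9 CPM after FGFBP1-CM, and DPP3 at 27.2 and 30.9 CPM. In 3 of the 13, DPP3 among them, all FGFBP1-CM libraries lay above, beside 12.8% of all tested genes. In 1, XPNPEP1, they lay below, beside 13.2%. The media nearly met for DPP3, at 28.86 CPM in Vector-CM replicate 2 and 28.87 CPM in FGFBP1-CM replicate 3. MME (neprilysin), a membrane peptidase, lay at 264 and 263 CPM.

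Genes for proteins or peptides that these peptidases can cleave were mostly at or near 0. Of 22 substrate genes 9 were tested, and none was called by edgeR or limma, 3 having an unadjusted p under 0.05, beside 21.7% of all tested genes, and 1, CXCL12, of the 6 to which DESeq2 gave an adjusted p being called by it, beside 4.94%. All 9 log2 fold changes were negative, with a median of -0.32. CCL5, a chemokine that DPP4 trims, averaged 90.5 CPM after Vector-CM and 55.1 CPM after FGFBP1-CM with no overlap, its log2 fold change being -0.72 (SE 0.164, adjusted p = 0.063 in edgeR). AGT, the angiotensin precursor, stood at -0.43 (SE 0.289) and CXCL10 at -0.42 (SE 0.390), both near 1 CPM. The collagen chains, whose denatured form FAP cleaves, were -0.09 for COL1A1, -0.32 for COL1A2 and -0.41 for COL3A1, all with overlapping groups. The genes of the best known peptide substrates, among them GCG, GIP, NPY, PYY and FGF21, did not pass the count filter.

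Of 19 partner genes, whose proteins bind or are controlled by these peptidases, 14 were tested and none was called by edgeR or limma, with 6 at an unadjusted p under 0.05, beside 21.7% of all tested genes, and 1, BRCA2, called by DESeq2 among 12 with an adjusted p, beside 4.94%. Their median log2 fold change was -0.15, and 12 of 14 were negative. BRCA2, a substrate of DPP9, stood at 0.32 (SE 0.074; adjusted p = 0.063, edgeR), averaging 75.9 and 95.1 CPM in the Vector-CM and FGFBP1-CM libraries. ADA, the adenosine deaminase that DPP4 anchors, stood at -0.28 (SE 0.095) and GSDMD, the pore protein of pyroptosis, at -0.26 (SE 0.079). The inflammasome sensors that DPP8 and DPP9 restrain stood at -0.19 for NLRP1 and -0.004 for CARD8.

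The list of FAP pathway genes held 12 genes of the growth factor, ERK and SMAD pathways and CXCL5, a chemokine that is placed downstream of FAP. All 13 were tested and none was called by edgeR or limma, with 4 at an unadjusted p under 0.05, beside 21.7% of all tested genes, and 2, MAPK3 and TGFB1, called by DESeq2, beside 4.94%. CXCL5 was among the 4, at a log2 fold change of -0.21 (SE 0.095), and its groups did not overlap. The median log2 fold change was -0.05 with or without CXCL5, and of the 13 genes 4 were positive and 9 negative. With a correction for GC content and length, 1 was positive and 12 negative, with a median of -0.12. TGFB1, a growth factor that induces FAP in fibroblasts, averaged 116 CPM after Vector-CM and 91.2 CPM after FGFBP1-CM without overlap, and its log2 fold change was -0.35 (SE 0.068), with an adjusted p of 0.057 in edgeR. TWIST1, a transcription factor of mesenchymal cells, stood at -0.40 (SE 0.130). EGR1, a transcription factor induced by growth factors, stood at 0.36 (SE 0.171) with overlapping groups. FGF2 and its receptor gene FGFR1 stood at -0.02 and -0.05.

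FAP is commonly counted among the genes of activated fibroblasts, yet most other genes of that set had negative log2 fold changes. Of 20 such genes 19 were tested, 18 with a negative log2 fold change under TMM, RLE and library size scaling alike, and the median was -0.24. In 10 of 19 the groups did not overlap with FGFBP1-CM below, beside 13.2% of all tested genes, and in none with FGFBP1-CM above. TIMP1, an inhibitor of matrix metalloproteinases, was the gene that was called: it fell from 335 to 258 CPM, or by 0.38 on the log2 scale (SE 0.062), with an adjusted p of 0.046 in edgeR. That call was lost when any Vector-CM library was left out, with library size scaling, with a mean of at least 1 CPM, in both limma fits and with a correction for GC content and length. TAGLN, an actin-binding protein of contractile cells, stood at -0.62 (SE 0.118; adjusted p = 0.057, edgeR), FN1, fibronectin, at -0.57 (SE 0.119; adjusted p = 0.057, edgeR), and LOX, which cross-links collagen, at -0.53 (SE 0.101; adjusted p = 0.057, edgeR). ACTA2, the smooth muscle actin of myofibroblasts, was low at 4.75 and 4.19 CPM, with a log2 fold change of -0.18. DESeq2 called 8 of the 14 to which it gave an adjusted p, beside 4.94% of all such genes. The list was drawn up with earlier results of these libraries known and is not independent evidence of its direction.

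**Figure D5:**
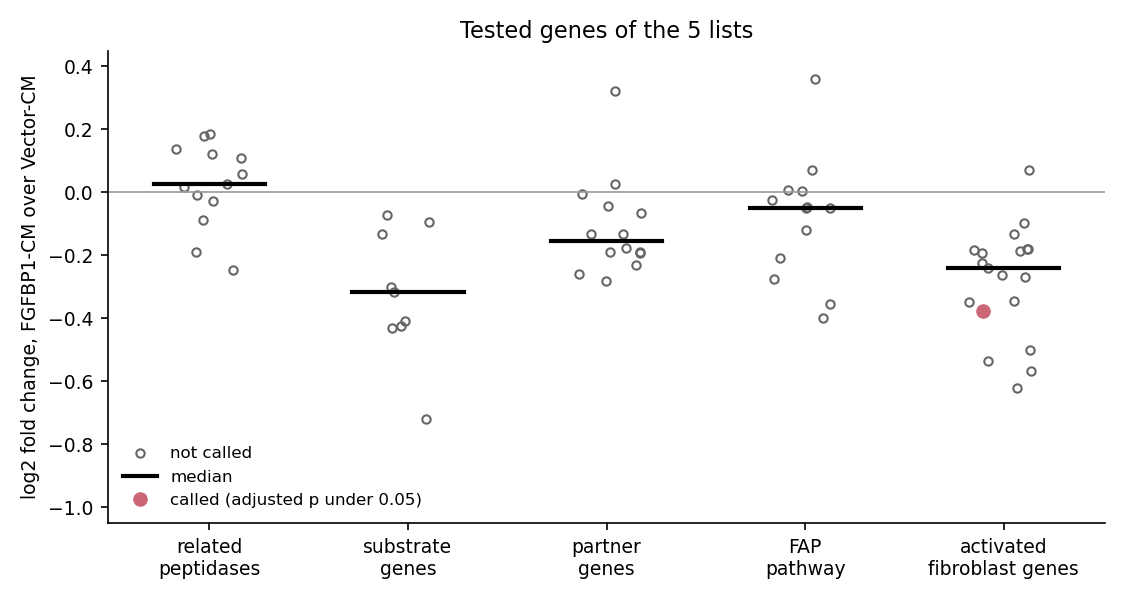
Log2 fold change of FGFBP1-CM over Vector-CM for each tested gene of the 5 lists; bars are list medians and the filled point is the gene called at an adjusted p under 0.05. The medians run from -0.32 for substrate genes to 0.03 for related peptidases, and TIMP1, at -0.38, is the filled point.

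The genes whose level followed FAP most closely over the 6 libraries were ZFP1 (Pearson r = 0.996), PHF14 (0.995), TCAF2 (0.993), EBAG9 (0.990) and NMI (0.990), among genes with a mean of at least 1 CPM. The 6 points fall into the 2 media, so r mainly follows the gap between them, and it is given as a description. PHF14, a reader of histone marks, was at 12.2, 12.4 and 12.9 CPM after Vector-CM and 19.2, 18.5 and 16.9 CPM after FGFBP1-CM. Choice by r favours genes that share the order of FAP within a medium, so that order is no further result. EBAG9 was lowest in replicate 1 of FGFBP1-CM, at 6.75, 7.03 and 6.85 CPM in replicate order. NMI, an interferon-inducible protein, was at 12.2, 12.4 and 12.8 CPM against 14.6, 14.5 and 13.9 CPM. Their differences were far smaller than that of FAP, the log2 fold changes of the 5 genes running from 0.16 to 0.69, and none of the 5 was called (adjusted p from 0.056 to 0.345, edgeR).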

How the data were processed

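The authors aligned reads with HISAT2 2.0.5, counted them with featureCounts 1.5.0-p3 and deposited raw counts per gene and FPKM values for 6 libraries. The methods name both poly(A) selection and ribosomal RNA depletion. Rows without an Ensembl identifier (175, 0.073% to 0.08% of counts) were left out of tests. The gene length implied by counts and FPKM agreed between libraries within 1% for each of the 33124 genes that allowed its computation.

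Counts were compared with edgeR 4.0.16 (filterByExpr, TMM, quasi-likelihood test, Benjamini-Hochberg adjustment over 16707 genes, threshold 0.05). CPM used TMM-scaled library sizes, and SE is the log2 fold change divided by the square root of F. DESeq2 1.42.0 and limma 3.58.1 served as alternatives. Principal transcripts were those of GENCODE release 29, in which 96.3% of identifiers were found.

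The members and lists were chosen with earlier results of these data known. Genes named were the members, all called genes and the 3 largest differences of each list, the neighbours and overlapping genes of FAP, and the 5 genes most like it; other named list genes were chosen after their values were seen. One marker gene is not reported here.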

Additional observations from a re-analysis of the deposited data

How the results depend on the processing

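FAP was chosen by its difference in these libraries, so its values under the alternatives are a description and no support. Its log2 fold change was positive in all 16, and was lowest in limma on log2(FPKM + 1), at 2.41, and 4.05 with log2(FPKM + 0.1); both scales understate the change of a low gene. The other tested members were not called in any alternative, and the signs of DPP7, DPP8, DPP9 and PREP changed in some of them. No neighbour of FAP was called in any alternative.

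The number of genes called was 20, and it was 38 with RLE scaling, 1382 without a low-count filter, 11 with a mean of at least 1 CPM, 585 with DESeq2, 1 and 5 with limma on log2(FPKM + 1) and log2(FPKM + 0.1), and 4 to 883 when libraries were left out in turn (6, 4 and 4 without Vector-CM replicates 1 to 3, and 72, 883 and 402 without FGFBP1-CM replicates 1 to 3). Of the list genes, 1 was called. There were 16 without a filter, 12 with DESeq2, 0 with library size only, with a mean of at least 1 CPM and in both limma fits, and 0 to 14 when libraries were left out. The cause was not tested.

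With the replicate number as a block, 90 genes and 6 list genes were called. Deviations of same-numbered libraries correlated at -0.118, -0.022 and 0.148 over 15033 genes, and 2 of 6 libraries correlated best with their own number. Deviations cancel out within each medium, which has few libraries, so these correlations cannot decide whether same-numbered libraries shared more than a number. Log2 fold change and GC content had a Spearman correlation of -0.215 over the tested genes of known GC content. A correction for GC content and length, chosen after seeing the data, gave 10 genes called, and with the replicate block 102 genes and 6 list genes.

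The order of levels had 5 distinct neighbouring pairs. Leaving out a library left 5 pairs, without Vector-CM replicate 2 in the order DPP8 before DPP9, and with 5 libraries the smallest p is 0.0625. The length of the principal transcript, also chosen after seeing the data, gave 6 pairs. Counts under 50 limit DPP4, DPP7, DPP10 and FAP in Vector-CM.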
